A study of Mus musculus with 4 samples.

Results

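The genes described here are 10 products of inflamed myeloid cells: the CC chemokines Ccl2, Ccl7, Ccl8 and Ccl12, the CXC chemokines Cxcl2 and Cxcl3, the cytokines Il1b and Il6, the acute phase protein gene Saa3 and the arginase gene Arg1. They were taken as a named list, and all 10 were found among the 31053 mouse genes of the files. The list was drawn up with their levels in these same cells known. Their levels in microglia, border macrophages, neutrophils and spleen myeloid cells are therefore a description with no test, and the differences between libraries were known when they were chosen.

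The study sorted CD45hi cells, which carry much of the leukocyte surface protein CD45, from mouse brain and spleen and read them with a droplet kit (10x Genomics Chromium, 3′ v2) in 4 libraries. The groups were brain and spleen of aged mice and brain and spleen of young mice, with 1 library each, so no difference between ages has a replicate check and no p-value is given. The labels of all 4 libraries state a tamoxifen injection before collection, made to follow tdTomato+ NK cells, and name the cell type as neuroblast. They state no strain, driver of Cre, age in numbers, sex or number of mice per library.

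After cell calling, 11007 aged and 3354 young cells of brain were used, with median depths of 2134 and 2307 UMIs (unique molecular identifiers, 1 per captured RNA molecule). For spleen the numbers were 5337 aged and 6370 young cells at 4622 and 4119 UMIs. The young brain library stood apart: 4473 of its cell barcodes were also cell barcodes of the aged spleen library, where chance gives 6.40. The 4798 young brain barcodes with more UMIs in the aged spleen library (58.9% of 8152) were left out. Of 202 young brain cells in the border macrophage cluster 2 were among them, and 0 in the microglia clusters. Keeping them moved the aged over young log2 ratio of Ccl8 in border macrophages from 1.18 to 1.19, a ratio they could hardly change. They made up 20 of 26 young brain cells in the neutrophil cluster and 30 of 32 in the monocyte or macrophage cluster. The other pairs of libraries shared between 7 and 43 cell barcodes. The neuroblast label did not match the cells described here: the 8 neuron or neuroblast markers summed to 11.6 and 14.7 CPM (UMIs per 1e+06 UMIs) in aged and young microglia-like cells, and Dcx, which marks neuroblasts, was at 0 in border macrophage-like and spleen myeloid cells of both ages.

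Cells were clustered without the 10 genes and named by markers. Microglia-like cells, the resident macrophages of brain tissue, numbered 7018 in aged and 2743 in young brain. Tmem119 was found in 92.8% and 91.6% of them. Border macrophage-like cells, the macrophages of meninges, vessels and choroid plexus, numbered 944 and 200, and Mrc1 was found in 79.3% and 86.5%. Neutrophil-like cells numbered 78 in aged brain, 38 in aged spleen and 50 in young spleen, all of them with S100a8. The 6 neutrophil-like cells of young brain were too few to compare. Spleen myeloid cells were the monocyte or macrophage-like cluster gated on a UMI of Lyz2 or C1qa and none of Cd3d, Cd3e, Cd3g or Cd79a, which left 71 of 178 aged and 137 of 220 young cells. Their median depth of 1051 and 968 UMIs was the lowest of these classes. The leading genes of the monocyte or macrophage-like cluster over all libraries were the granule genes Prtn3, Mpo, Elane and Ctsg, followed by Ms4a3 and Fn1. The class name therefore does not show that each of its cells is a monocyte or macrophage.

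Chemokines are small secreted proteins that draw leukocytes along a gradient. Ccl2, Ccl7 and Ccl12 act through Ccr2 on monocytes, mouse Ccl8 is a ligand of Ccr8, and Cxcl2 and Cxcl3 act through Cxcr2 on neutrophils. Il1b is made as a precursor that inflammasome caspases cut, and Il6 signals through Il6ra with Il6st. In myeloid cells many of these genes are switched on within hours by NF-kB, AP-1 and interferon-activated factors.

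RefSeq gave a promoter window (250 bases before to 50 after the start, build GRCm38.p6) for 7 of the 10 genes, and none for Ccl2, Ccl7 and Arg1. Both strands were searched for the NF-kB letters (GGG, any 2 bases, TTTCC), the AP-1 letters (TGA, any base, TCA) and the letters of the interferon-stimulated response element (TTTC, any 2 bases, TTTC). Of 32851 promoters, 1.63% held the NF-kB letters, 7.81% the AP-1 letters and 3.44% the interferon letters. Printed 5′ to 3′ on the strand of the gene are the 3 windows that held the NF-kB letters and those of Ccl8 and Ccl12, the members highest in border macrophages, which held none of the 3. Capitals mark matches.
Cxcl2 (chr5:90903649-90903948, plus strand): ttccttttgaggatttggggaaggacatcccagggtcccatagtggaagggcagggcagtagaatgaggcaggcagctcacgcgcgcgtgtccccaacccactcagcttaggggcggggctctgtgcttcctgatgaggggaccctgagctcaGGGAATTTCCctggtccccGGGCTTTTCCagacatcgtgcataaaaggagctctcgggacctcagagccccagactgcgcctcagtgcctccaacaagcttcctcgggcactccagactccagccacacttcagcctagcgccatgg
Cxcl3 (chr5:90785851-90786150, plus strand): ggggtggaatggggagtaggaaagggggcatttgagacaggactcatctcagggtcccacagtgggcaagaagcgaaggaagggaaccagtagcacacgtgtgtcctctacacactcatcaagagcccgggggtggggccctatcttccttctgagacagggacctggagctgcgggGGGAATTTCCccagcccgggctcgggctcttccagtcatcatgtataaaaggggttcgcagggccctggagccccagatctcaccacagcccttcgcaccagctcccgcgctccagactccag
Il6 (chr5:30012864-30013163, plus strand): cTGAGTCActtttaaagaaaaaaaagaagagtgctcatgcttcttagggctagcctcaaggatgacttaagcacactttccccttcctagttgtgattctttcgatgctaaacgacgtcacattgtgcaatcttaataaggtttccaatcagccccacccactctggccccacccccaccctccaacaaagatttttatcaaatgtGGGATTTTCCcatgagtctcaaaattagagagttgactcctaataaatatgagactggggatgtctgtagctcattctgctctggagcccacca
Ccl8 (chr11:82114935-82115234, plus strand): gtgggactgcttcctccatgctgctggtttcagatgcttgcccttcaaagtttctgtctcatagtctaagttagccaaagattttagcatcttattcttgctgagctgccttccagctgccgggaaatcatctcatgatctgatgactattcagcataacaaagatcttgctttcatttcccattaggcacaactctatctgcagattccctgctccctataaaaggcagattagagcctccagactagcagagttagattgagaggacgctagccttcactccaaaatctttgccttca
Ccl12 (chr11:82101595-82101894, plus strand): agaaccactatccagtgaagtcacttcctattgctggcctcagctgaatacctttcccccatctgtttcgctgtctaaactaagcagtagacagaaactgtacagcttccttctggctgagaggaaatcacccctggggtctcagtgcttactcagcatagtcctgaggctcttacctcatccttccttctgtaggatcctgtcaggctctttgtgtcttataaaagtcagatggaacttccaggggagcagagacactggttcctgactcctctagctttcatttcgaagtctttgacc
The Cxcl2 window held the NF-kB letters at -97 and -78 from the start, Cxcl3 at -73 and Il6 at -44, and Il6 also held the AP-1 letters at -249. The Saa3 window held the interferon letters at -125, and the Il1b window held none of the 3. A match is a string of letters, not a shown binding site, and its absence covers only this window.

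The 10 genes split by cell class. Ccl8 and Ccl12 were highest in border macrophages, Cxcl2 and Il1b in neutrophils and spleen myeloid cells, and of the brain macrophages microglia held more Il6. Ccl2 and Ccl7 were higher in border macrophages than in microglia, and higher still in aged spleen myeloid cells, where 1 cell held most of them. Levels are given as CPM: a gene's UMIs in all cells of a class and library, scaled to 1e+06 UMIs. Intervals are 95% intervals (exact Poisson for CPM, Clopper-Pearson for shares, exact conditional binomial for ratios) and cover counting error only. In aged border macrophages 56.8% of cells held a UMI of at least 1 of the 10 genes and 23.4% of at least 2; in young ones the shares were 43.5% and 17.5%. The share with at least 1 was 23.6% and 18.8% in aged and young microglia, 41.0%, 73.7% and 60% in neutrophils of aged brain, aged spleen and young spleen, and 36.6% and 23.4% in aged and young spleen myeloid cells.

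**Figure D1:**
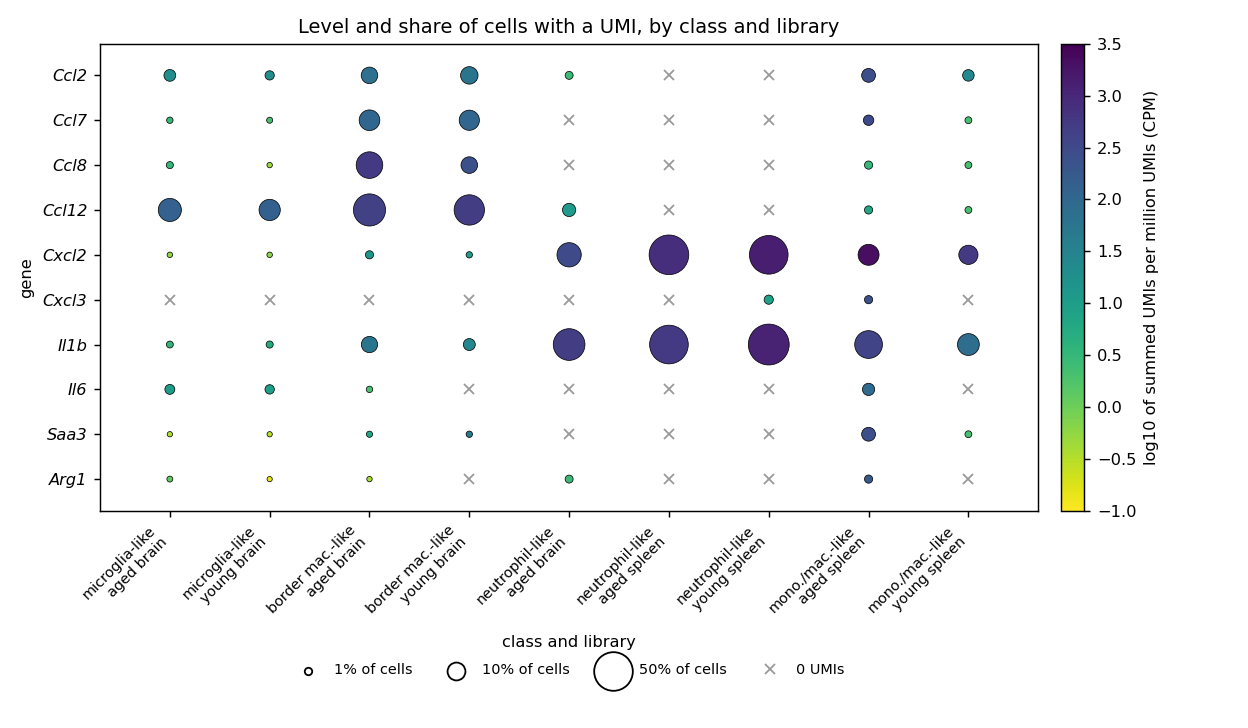
Level (colour, log10 of CPM) and share of cells with a UMI (dot area) of the 10 genes in each class and library; crosses mark 0 UMIs. Ccl8 and Ccl12 are highest in the border macrophage columns, and Cxcl2 and Il1b in the neutrophil and spleen myeloid columns.

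Of Ccl2, Ccl7, Ccl8 and Ccl12, Ccl8 differed most between the ages in border macrophages. Its level was 546 CPM in aged brain (1413 UMIs) and 241 CPM in young brain (112 UMIs), a ratio of 2.27 (1.87 to 2.77). A UMI was found in 23.2% of aged cells (219 of 944; 20.5 to 26.0%) and 8.50% of young ones (17 of 200; 5.03 to 13.3%). In young brain 1 cell held 67 of the 112 UMIs, and 5 cells held 84.8%, against 25.8% in the top 5 aged cells. With the 5 richest cells of each library left out, the log2 ratio was 3.43 in place of 1.18.

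The Ccl8 ratio also depended on which border macrophages were compared. These splits were chosen after the values were seen. Among cells with at most 5% mitochondrial UMIs Ccl8 stood at 293 CPM in aged and 276 in young brain, a ratio of 1.06 (0.851 to 1.34), while 19.3% of 596 and 8.96% of 134 cells held a UMI. Among cells above 5% it stood at 1068 and 149 CPM, a ratio of 7.17 (4.56 to 11.96), with 29.9% of 348 and 7.58% of 66 cells positive. The difference in summed level lay in the cells with more mitochondrial RNA, and the difference in share was present in both. The young cell with 67 Ccl8 UMIs, at 3.23% mitochondrial UMIs, held 67 of the 93 young UMIs at most 5%. The near-equal level in that subset thus rests on 1 young cell. When the limit of 5% was set before clustering, the log2 ratio was -0.06.

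Border macrophages can be divided by MHC class II, here by a UMI of H2-Aa, which 57.0% of aged and 24.0% of young cells held. Among cells with H2-Aa, Ccl8 had 649 UMIs in 538 aged cells (417 CPM) and 2 UMIs in 48 young cells (14.98 CPM), a ratio of 27.9 (7.68 to 230). Among cells without it, the levels were 739 and 332 CPM, a ratio of 2.23 (1.82 to 2.75). Ccl8 was thus higher in aged brain on both sides of this split. Among cells without H2-Aa the ratios were 1.26 (0.989 to 1.62) at most 5% mitochondrial UMIs and 4.89 (3.098 to 8.19) above it. The young cell with 67 Ccl8 UMIs lay in the first of these subsets, which held 91 young UMIs. Microglial RNA also differed between the ages in this class: the 10 microglia markers summed to 7891 CPM in aged and 4977 in young border macrophages, and Tmem119 stood at 428 and 146 CPM. Among cells with no UMI of Tmem119 or P2ry12 (208 aged, 98 young) Ccl8 stood at 673 and 156 CPM, a ratio of 4.32 (2.97 to 6.52).

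**Figure D2:**
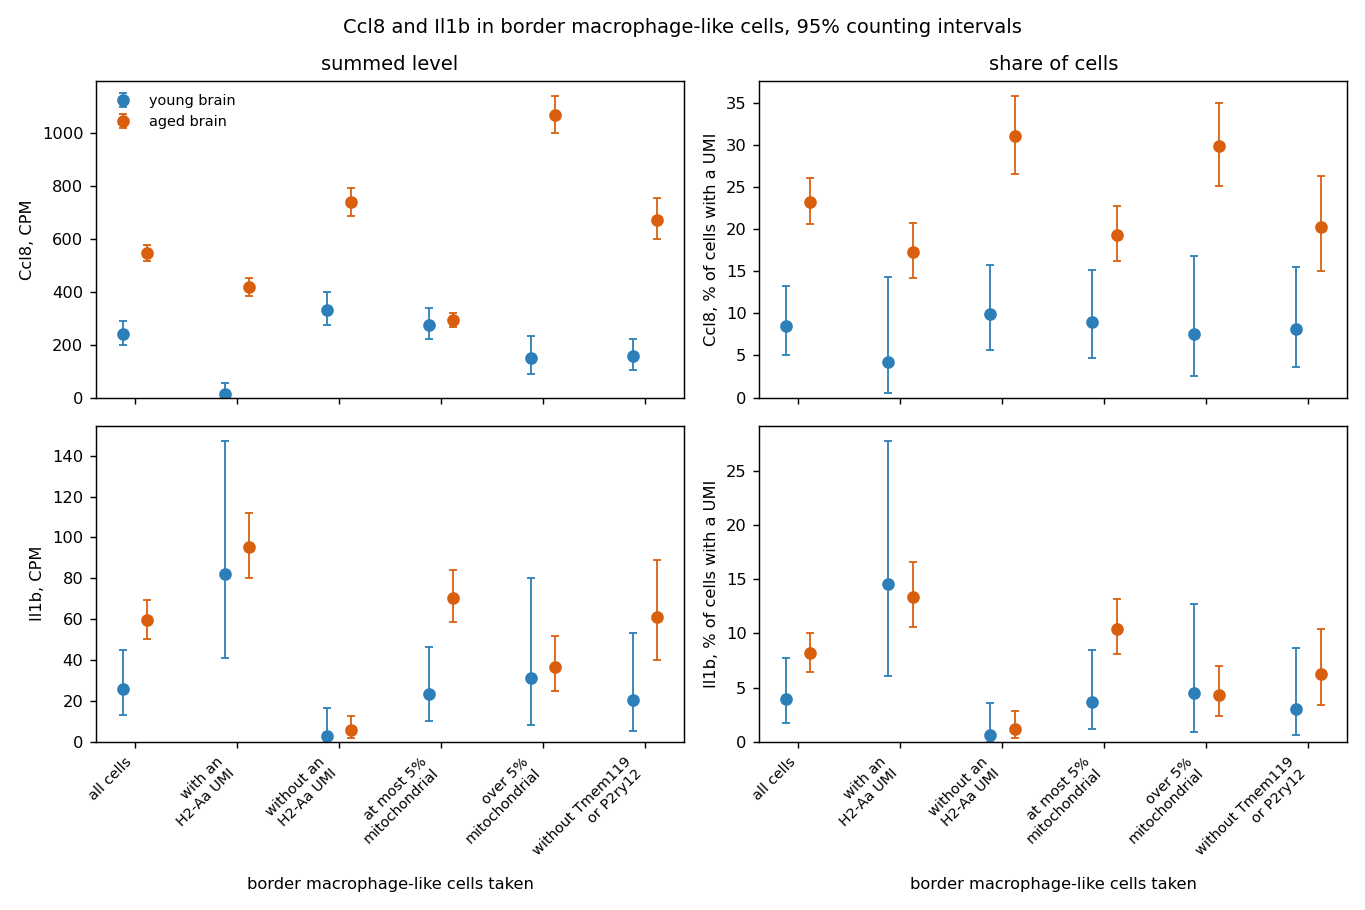
Level (left, CPM) and share of cells with a UMI (right) of Ccl8 (top) and Il1b (bottom) in aged and young border macrophage-like cells, for all cells and for subsets; points are values and bars 95% counting intervals. Ccl8 levels meet in the subset with at most 5% mitochondrial UMIs (293 and 276 CPM), where 1 young cell holds 67 of 93 UMIs. Il1b levels are close in the subset with H2-Aa (95.1 and 82.4 CPM).

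Ccl2, Ccl7 and Ccl12 differed less between the ages in border macrophages. Other CC chemokines outside the 10 genes did differ there, such as Ccl24 at 129 and 331 CPM and Ccl5 at 75.3 and 288 CPM. Ccl12 was the most widespread, with 425 CPM in 34.3% of aged cells and 492 CPM in 30.5% of young cells, a ratio of 0.863 (0.748 to 0.999). Ccl7 stood at 105.03 and 108 CPM, a ratio of 0.977 (0.720 to 1.35), in 13.7% and 13% of cells. Ccl2, the main monocyte attractant, stood at 69.9 and 58.1 CPM, a ratio of 1.20 (0.801 to 1.88), in 8.47% and 9.5% of cells. Among cells without H2-Aa, Ccl2 was at 123 CPM in aged and 72.4 in young brain, a ratio of 1.70 (1.09 to 2.75). Among cells with H2-Aa it was at 34.7 and 22.5 CPM, on 54 and 3 UMIs.

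Single cells held the chemokines in different company. For this, each cell was thinned to 1000 UMIs, which left 891 aged and 183 young border macrophages and dropped 53 and 17. Of 143 aged cells with Ccl8, 83.2% held Mrc1 and 22.4% Lyve1, both of resident perivascular and meningeal macrophages, against 59.8% and 10.4% of the 748 without. Ccr2, the monocyte chemokine receptor, was in 4.20% of cells with Ccl8 and 23.4% of those without, and H2-Aa in 34.3% and 58.3%. Ccl2 was found together with Ccl7: 40.0% of 35 aged cells with Ccl2 held Ccl7, against 5.49% of 856 without. The young library gave 46.2% of 13 cells against 5.29% of 170. Ccl3, a chemokine of acutely activated macrophages, was in 22.9% of aged cells with Ccl2 and 4.21% of those without. These are shares within 1 library, with no test.

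**Figure D3:**
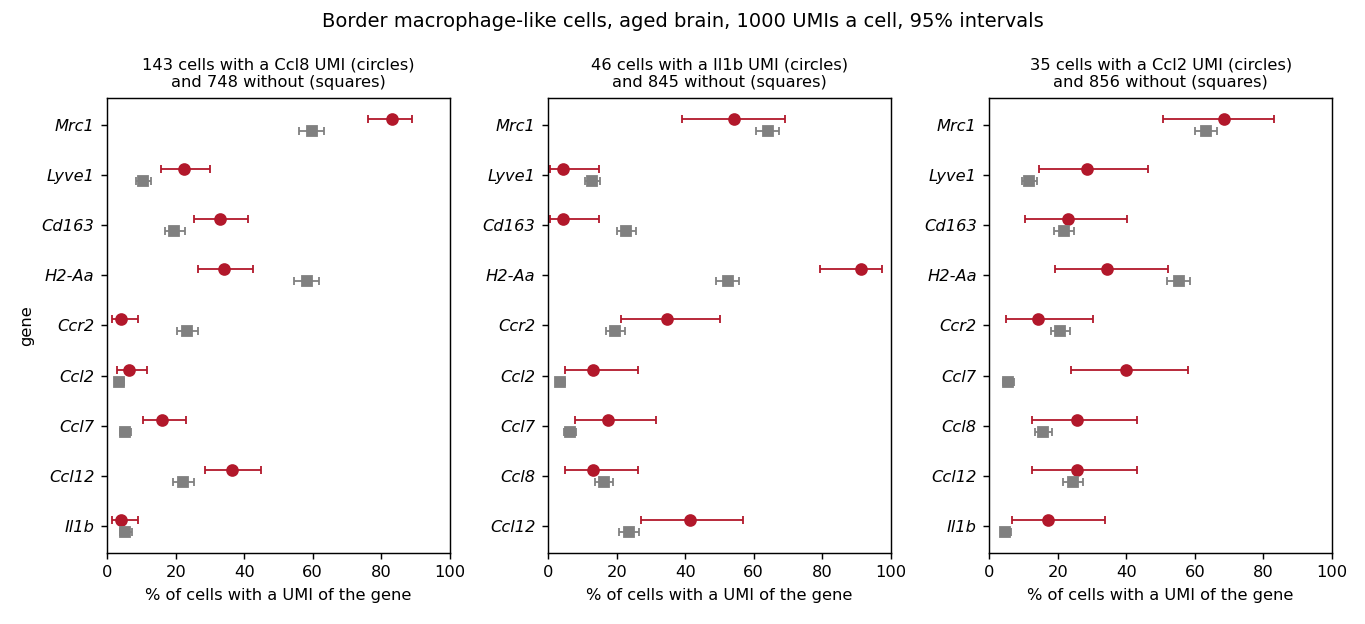
Share of aged border macrophage-like cells with a UMI of each gene on the vertical axis, among cells with (circles) and without (squares) a UMI of Ccl8, Il1b or Ccl2, all thinned to 1000 UMIs; bars are 95% intervals. Cells with Ccl8 are richer in Mrc1 and poorer in Ccr2 (4.20% against 23.4%), cells with Il1b are richer in H2-Aa (91.3% against 52.4%), and cells with Ccl2 are richer in Ccl7.

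In microglia, Ccl12 was the most abundant of the 10 genes. It stood at 132 CPM in aged and 135 CPM in young brain, a ratio of 0.981 (0.907 to 1.06), and 17.3% and 14.5% of cells held a UMI. Free RNA, read from barcodes of at most 100 UMIs, held 110 and 48.7 CPM of Ccl12. Endothelial-like cells of aged brain, with a median of 2946 UMIs against 2281.5 in microglia, held it in 16.2% of cells at 73.2 CPM, and T-like cells in 4.76% at 15.7 CPM. Astrocyte-like cells of aged brain held it in 26.5% of 83 cells at 116 CPM (79.8 to 163), and mural or fibroblast-like cells in 15.7% at 51.3 CPM. The share of positive microglia was therefore within the range of other classes. Their level was above that of endothelial-like cells and within the interval of astrocyte-like cells.

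Most aged microglia (6638 of 7018) fell in cluster 0 and most young ones (2566 of 2743) in cluster 3. Ccl12 stood at 97.1 CPM in the aged cells of cluster 0 and 113 CPM in the young cells of cluster 3. Another cluster, led by interferon-induced genes, held 99 aged and 63 young cells and had Ccl12 at 2377 CPM (2195 to 2569) and 1001 CPM (855 to 1164), in 66.7% and 58.7% of cells. Ccl2 in that cluster stood at 108 and 65.5 CPM, above the 20.9 and 20.8 CPM of all microglia. The 10 genes took no part in the clustering, but correlated genes did, so these levels are a description.

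Ccl2 in microglia was level with age in sum and not in spread. It had 361 UMIs in 271 of 7018 aged cells (3.86%) and 135 UMIs in 56 of 2743 young cells (2.04%), at 20.9 and 20.8 CPM, a ratio of 1.002 (0.820 to 1.23). In young brain 1 cell held 39 of the 135 UMIs and 5 cells 55.6%, against 7.76% in the top 5 aged cells. Without the 5 richest cells of each library the log2 ratio was 1.05. Free RNA held 15.8 CPM of Ccl2 in aged and 9.88 in young brain. In aged brain astrocyte-like cells held Ccl2 in 3.61% of cells, mural or fibroblast-like cells in 3.37% and endothelial-like cells in 2.70%. Ependymal or choroid-like cells held it in 0.476% and T-like cells in 0 of 84. In young brain 1.94% of astrocyte-like cells held it. The microglial shares were thus close to those of other classes, and a part of background in them was not tested. Cells with Ccl2 were also richer in other activation chemokines: Ccl3 was in 19.8% of 131 aged microglia with Ccl2 against 7.35% of 6174 without, and Ccl4 in 11.5% against 4.78%. In young microglia the shares were 29.6% of 27 against 4.73% of 2450 for Ccl3, and 44.4% against 4.82% for Ccl4.

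Ccl7 in microglia stood at 3.01 and 2.16 CPM, a ratio of 1.39 (0.760 to 2.72). Ccl8 had 58 UMIs in 58 aged cells, 1 each, and 3 UMIs in 3 young cells, a ratio of 7.25 (2.36 to 36.2). That aged share of 0.826% lay under the 1.80% of endothelial-like cells, and free RNA held 20.7 CPM of Ccl8 in aged and 3.66 in young brain against 3.36 and 0.463 CPM in microglia. A part of background in the microglial Ccl8 was not tested. In both brain libraries border macrophages held far more of the CC chemokines than microglia, with aged ratios of 163 (125 to 215) for Ccl8, 34.9 (25.9 to 47.9) for Ccl7, 3.35 (2.78 to 4.01) for Ccl2 and 3.21 (2.98 to 3.45) for Ccl12. In young brain those ratios were 520 (173 to 2560, on 3 microglial UMIs), 49.7 (27.1 to 97.4), 2.79 (1.77 to 4.24) and 3.65 (3.14 to 4.23).

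The neutrophil attractants were nearly absent from brain macrophages. Cxcl2 had 10 and 4 UMIs in aged and young microglia and 36 and 5 UMIs in border macrophages, where the 5 young UMIs came from 1 cell. Cxcl3 had 0 UMIs in all 4, and 0 of 7018 aged microglia allows a share of up to 0.0525% of cells with a UMI. In aged brain the Cxcl2 level was 24.0 times higher (11.7 to 54.3) in border macrophages than in microglia, at 13.9 against 0.579 CPM.

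Neutrophils of spleen held the most Cxcl2 and Il1b of the classes compared, apart from the Cxcl2 of aged spleen myeloid cells described below. Cxcl2 stood at 1320 CPM in young spleen (652 UMIs, 50% of 50 cells), 814 CPM in aged spleen (302 UMIs, 52.6% of 38 cells) and 309 CPM in aged brain (111 UMIs, 19.2% of 78 cells). Il1b stood at 1170 CPM (56.0% of cells), 542 CPM (50%) and 506 CPM (33.3%) in the same order. All of these counts rest on few cells, and in aged spleen 1 cell held 33.8% of the Cxcl2 UMIs and 36.3% of the Il1b UMIs.

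Aged over young spleen, the ratio was 0.463 (0.392 to 0.545) for Il1b and 0.617 (0.536 to 0.708) for Cxcl2. Both of the 2 measured genes were thus lower in the aged library and 1 of them past 2-fold, where 10.2% of 4235 measured genes were past 2-fold (3.38% higher, 6.85% lower); the median log2 ratio was -0.90 for the 2 genes and -0.04 for all. Aged brain over aged spleen, the ratio was 0.379 (0.302 to 0.473) for Cxcl2 and 0.933 (0.760 to 1.15) for Il1b, so 1 of 2 was past 2-fold lower, where 10.9% of 3789 genes were lower and 21.6% past 2-fold either way, with medians of -0.75 and -0.07. Some of these cells are maturing: Camp, a granule gene of immature neutrophils, was found in 46, 18 and 23 cells of aged brain, aged spleen and young spleen.

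Nearly all Il1b of neutrophils lay in cells without Camp, a split chosen after the values were seen. Their Il1b stood at 2399 CPM in 32 aged brain cells, 4822 CPM in 20 aged spleen cells and 6442 CPM in 27 young spleen cells, against 3.52, 15.1 and 29.6 CPM in cells with Camp. Their Cxcl2 stood at 1458, 3862 and 7227 CPM, against 3.52, 439 and 41.9 CPM. In aged spleen 145 of the 302 Cxcl2 UMIs were in cells with Camp, unlike in the other libraries (1 of 111 and 17 of 652). Within cells without Camp the aged over young spleen ratio was 0.748 (0.633 to 0.882) for Il1b and 0.534 (0.446 to 0.637) for Cxcl2, so the Il1b ratio was no longer past 2-fold and the Cxcl2 ratio was closer to it. Aged brain over aged spleen, the ratios there were 0.498 (0.404 to 0.612) and 0.378 (0.293 to 0.485). Finding no Camp depends on depth: cells without it had medians of 1938, 942.5 and 2974 UMIs, and cells with it 5581, 16446.5 and 14643. In cells thinned to 1000 UMIs, 73.7% of 19 young spleen cells with Il1b also held Cxcl2, against 4.55% of 22 without, and Cxcr2, the receptor of mature neutrophils for Cxcl2, was in 85.7% of 21 aged brain cells with Il1b against 24.1% of 54 without.

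**Figure D4:**
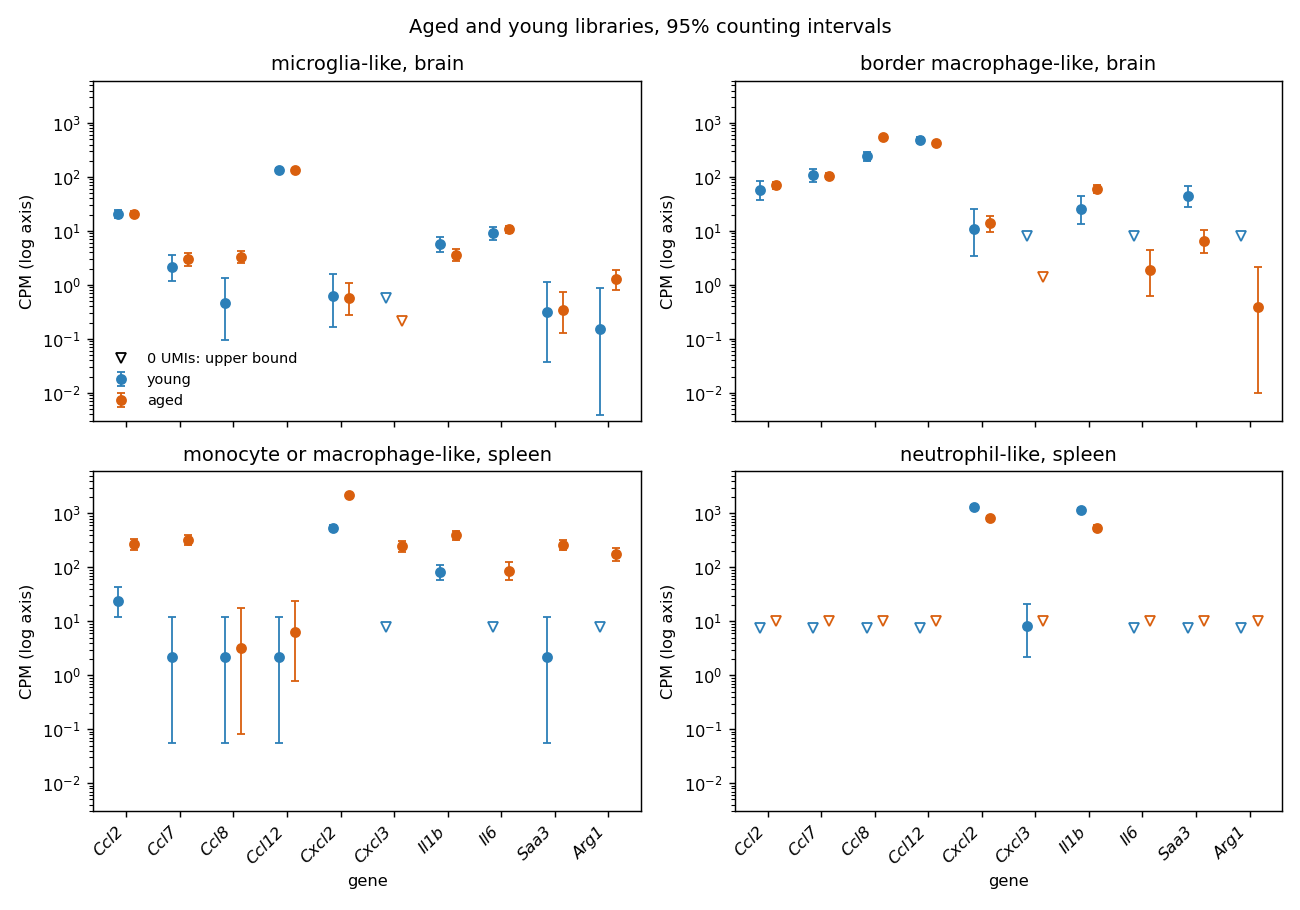
CPM (log axis) of the 10 genes in aged and young libraries for microglia, border macrophages, spleen myeloid cells and spleen neutrophils; points are values, bars 95% counting intervals, and open triangles upper bounds at 0 UMIs. Ccl8 and Il1b are higher in aged border macrophages (546 and 241 CPM, 59.5 and 25.8 CPM), and Il1b is lower in aged spleen neutrophils (542 and 1170 CPM).

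Il1b in border macrophages was higher in the aged library and lay in the MHC class II cells. It had 154 UMIs in 77 of 944 aged cells (59.5 CPM, 8.16%) and 12 UMIs in 8 of 200 young cells (25.8 CPM, 4.00%), a ratio of 2.30 (1.28 to 4.56). Of those UMIs 148 and 11 were in cells with H2-Aa, at 95.1 and 82.4 CPM, a ratio of 1.15 (0.627 to 2.36). The level among such cells thus differed by less than the counting error, while their share of the class was 57.0% and 24.0%. After thinning, 91.3% of 46 aged cells with Il1b held H2-Aa against 52.4% of 845 without, 4.35% against 22.7% held Cd163, and 41.3% against 21.9% held Fos. The Il1b ratio ceased to be past 2-fold with at least 1000 UMIs per cell (log2 0.59), with no doublets removed (0.50) and with finer clusters (0.49).

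In microglia Il1b was scarce. It had 63 UMIs in 7018 aged cells (3.64 CPM) and 37 UMIs in 2743 young cells (5.71 CPM), a ratio of 0.638 (0.419 to 0.985), but 15 of the 37 young UMIs were in 1 cell. Without the 5 richest cells of each library the log2 ratio was 0.03 in place of -0.65, and it was above 0 with finer clusters (0.15) and with a marker gate in place of clusters (0.41). Free RNA held 14.7 and 43.9 CPM of Il1b, above the level in microglia. The share of 0.741% in aged microglia also lay under the 1.12% (0.366 to 2.60%) of endothelial-like cells. A part of background in the microglial Il1b was not tested. Border macrophages of the same libraries held 16.3 times (12.1 to 22.2) the microglial level in aged and 4.52 times (2.14 to 8.86) in young brain. The young border level of 25.8 CPM, on 12 UMIs, also lay under the 43.9 CPM of free RNA, and the aged one of 59.5 CPM above 14.7 CPM. Against the 1.12% of endothelial-like cells in aged brain, 8.16% of aged border macrophages held Il1b. The 58 monocyte-like cells of aged brain held Il1b at 103 CPM in 17.2% of cells.

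Il6 went the other way between the brain macrophages. In microglia it had 185 UMIs in 174 of 7018 aged cells (10.7 CPM, 2.48%) and 59 UMIs in 58 of 2743 young cells (9.11 CPM, 2.11%), a ratio of 1.18 (0.872 to 1.60). In border macrophages it had 5 UMIs in 944 aged cells and 0 in 200 young cells, and the aged ratio of border macrophages to microglia was 0.180 (0.0579 to 0.429). Endothelial-like cells of aged brain held Il6 in 1.12% of cells and T-like cells in 0 of 84, which allows a share of up to 4.30%. Il6 in free RNA stood at 5.98 and 3.66 CPM. No aged microglia-like cell held over 3 UMIs of it, and it was in 5.05% and 6.35% of the interferon-led cluster. In spleen most Il6 lay outside the myeloid gate: an unnamed cluster, with the cell cycle genes Top2a and Mki67 and also Car1 and Ighg3 among its leading genes, held 149 UMIs in 9 of 172 aged cells and 17 UMIs in 9 of 98 young cells.

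Saa3 and Arg1 were rare in brain. Saa3 had 17 UMIs in 4 aged border macrophages and 21 UMIs in 1 young border macrophage, at 6.56 and 45.2 CPM, so the ratio of 0.145 (0.0720 to 0.289) rests on 1 young cell. In microglia it had 6 and 2 UMIs. Arg1 had 22 UMIs in 22 aged microglia and 1 UMI in young microglia, a ratio of 8.25 (1.33 to 340). Its share of 0.313% in aged microglia lay under the 0.674% (0.139 to 1.96%) of endothelial-like cells. Free RNA of aged brain held Arg1 at 0.544 CPM (1 UMI), against 1.27 CPM in aged microglia. A part of background in the microglial Arg1 was not tested.

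Counted over the list, 7 of the 10 genes had at least 20 UMIs over both libraries in microglia. Of these 2 were past 2-fold, Ccl8 and Arg1, both higher in aged brain and both at shares under those of endothelial-like cells. Of 12537 measured genes 12.2% were past 2-fold (9.59% higher, 2.65% lower). The median log2 ratio was 0.23 for the 7 and 0.10 for all genes. In border macrophages 7 were measured, with Ccl8 and Il1b past 2-fold higher and Saa3 past 2-fold lower, where 14.1% of 9294 genes were past 2-fold (10.6% higher, 3.48% lower), with medians of 0.27 and 0.07. Between the brain macrophages of aged brain 7 of 9 measured genes were past 2-fold higher in border macrophages and Il6 and Arg1 lower, where 19.4% of 12509 genes were past 2-fold (7.6% higher, 11.8% lower). In young brain 6 of 7 were higher and none past 2-fold lower, where 24.4% of 10427 genes were past 2-fold (7.98% higher, 16.5% lower). The other gene, Il6, had 0 against 59 UMIs. With 0 taken at the floor of 3 counts its ratio was a bound of 0.708, so it could not be called past 2-fold lower. The lower Arg1 of aged border macrophages rests on 1 against 22 UMIs, a ratio of 0.303 (0.00735 to 1.88). The list was chosen on these levels, so nothing is read from the counts.

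All 8 measured genes were past 2-fold higher in aged than in young spleen myeloid cells, and 1 aged cell carried most of it. The share of measured genes past 2-fold was 12% of 5211 (6.31% higher, 5.68% lower), and the median log2 ratio was 4.25 for the 8 genes, with those at 0 in young spleen taken at their bound, and 0.03 for all. Cxcl2 stood at 2152 CPM in aged (665 UMIs) and 533 CPM in young (247 UMIs), a ratio of 4.04 (3.48 to 4.69). Il1b stood at 395 CPM (122 UMIs, 25.4% of cells) and 82.0 CPM (38 UMIs, 15.3%), a ratio of 4.82 (3.32 to 7.13). Ccl2 had 82 and 11 UMIs and Ccl7 had 99 and 1, ratios of 11.2 (5.93 to 23.3) and 149 (26.0 to 5924). Cxcl3, Il6 and Arg1 had 77, 27 and 54 UMIs in aged and 0 in young cells, so their levels were at least 38.5-fold, 13.5-fold and 27.0-fold higher against a floor of 3 counts per library.

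That cell, chosen after the values were seen, had 19906 UMIs and held 58.5% of all UMIs of the 10 genes in its class. It held 71 of 82 Ccl2, 98 of 99 Ccl7, 390 of 665 Cxcl2, 18 of 27 Il6 and every UMI of Cxcl3 (77) and Arg1 (54), with 0 of Il1b and Saa3. It also held 159 UMIs of Ccl4, 93 of the monocyte gene Fn1, 65 of the prostaglandin synthase gene Ptgs2 and 32 of Ccr2. Its barcode was also in the young brain library with 4355 UMIs and the same genes (99 of Cxcl2, 16 of Ccl7, 11 of Arg1), and was 1 of those left out there.

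Without that cell Ccl2, Cxcl2, Il1b and Saa3 were still measured, and 2 of them were past 2-fold, Il1b and Saa3. The share of all genes past 2-fold without that cell is not given here. Ccl7, Cxcl3, Il6 and Arg1 then fell under 20 UMIs over both libraries and no longer counted as measured. Il1b then stood at 422 CPM, a ratio of 5.15 (3.55 to 7.62), and Cxcl2 at 951 CPM, a ratio of 1.79 (1.498 to 2.13). Ccl2 had 11 UMIs in each library, a ratio of 1.60 (0.630 to 4.08), and Ccl7 had 1 UMI in each. Il6 kept 9 UMIs in 2 cells against 0. Saa3 had 81 UMIs in 4 aged cells and 1 UMI in young cells, a ratio of 130 (22.7 to 5192), and 54 of the 81 were in 1 cell.

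**Figure D5:**
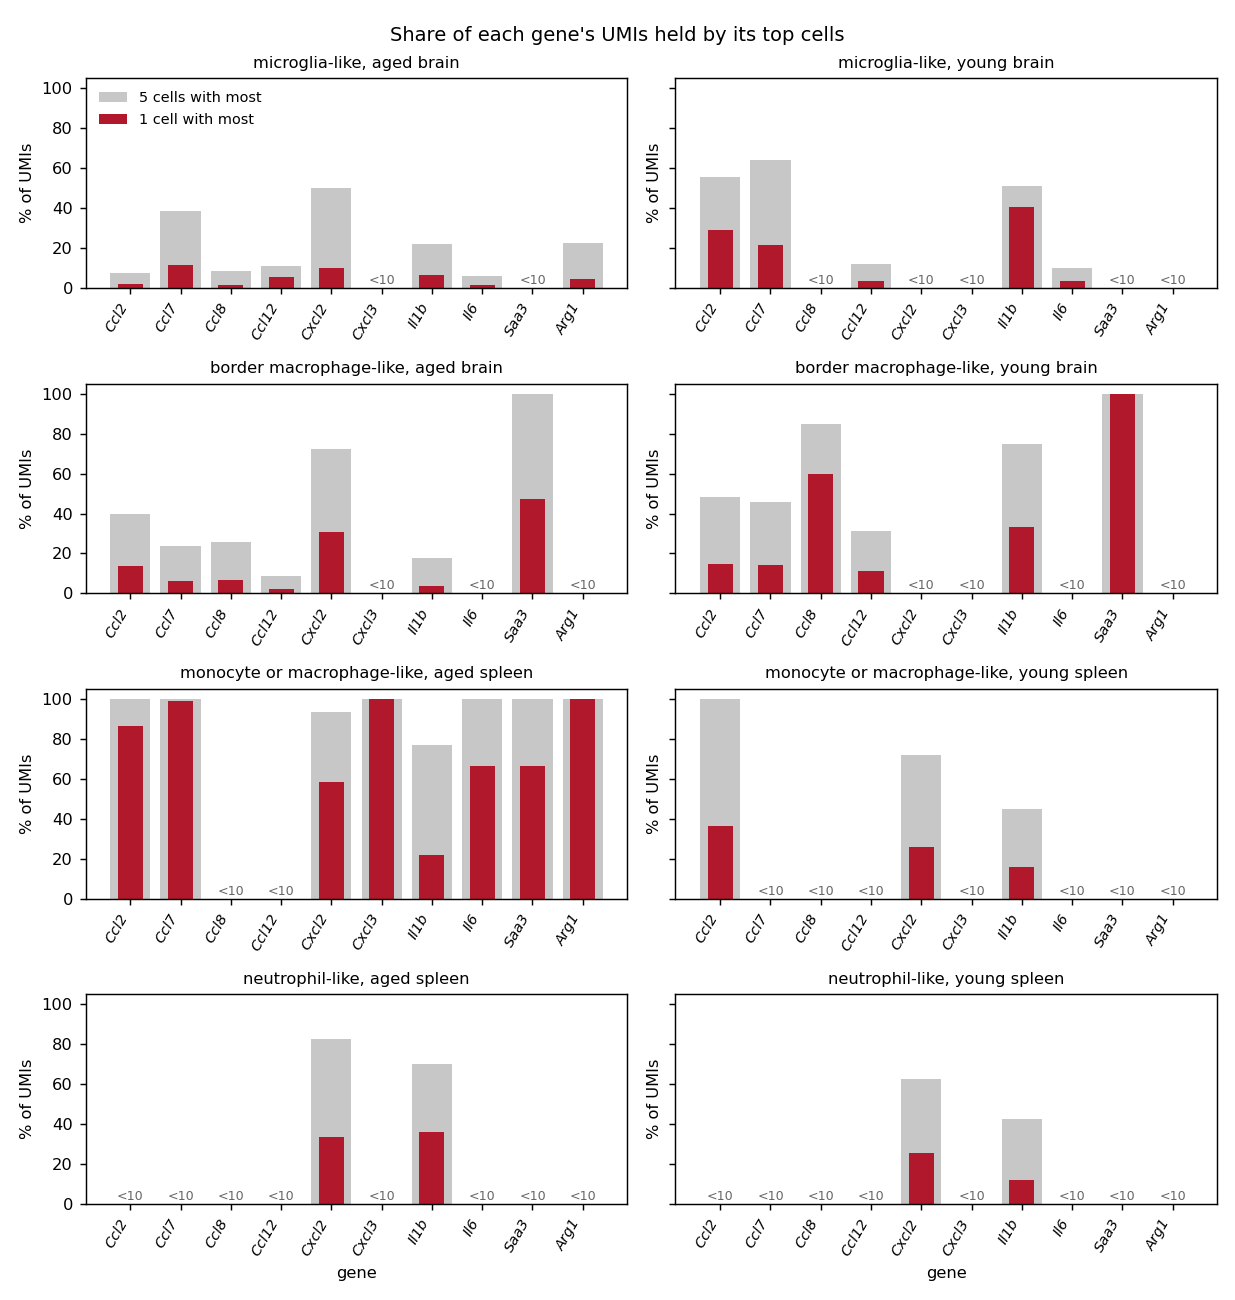
Share of each gene's UMIs held by the 1 cell (red) and the 5 cells (grey) with the most, by class and library; genes under 10 UMIs are marked <10. In aged spleen myeloid cells 1 cell holds 58.6% of Cxcl2 and 100% of Cxcl3 and Arg1, while in aged microglia 1 cell holds at most 11.5% of any gene with over 10 UMIs.

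The spleen levels also depended on the gate. Among the cells of the same cluster outside it (107 aged, 83 young) the order turned, with Cxcl2 at 250 and 735 CPM and Il1b at 75.4 and 186 CPM. Over the whole cluster, Cxcl2 stood at 899 and 610 CPM and Il1b at 184 and 121 CPM, log2 ratios of 0.56 and 0.60. With the gate alone, whatever the cluster, it held 187 aged and 284 young cells, among them 27 and 87 NK-like and 22 and 30 neutrophil-like cells, and the log2 ratio of Il1b was -0.88. Neutrophil markers were present inside the gated cluster: they summed to 2773 CPM in aged cells (8 of 11 genes with a UMI, with Retnlg, Ly6g and Mmp9 at 0) and 5762 CPM in young cells (7 of 11, with Retnlg, Cxcr2, Ly6g and Ltf at 0). Their part in the result was not tested.

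Within the gate nearly all Cxcl2 lay in cells with Lyz2 and no C1qa, at 2466 CPM in 31 aged and 745 CPM in 48 young cells. Lack of C1qa does not by itself make these cells monocytes. In cells with C1qa, a complement gene of tissue macrophages, it had 0 UMIs in 40 aged cells and 6 UMIs in 89 young cells. Il1b stood at 430 and 61.8 CPM in the first and 152 and 128 CPM in the second kind of cell. The cells with C1qa were shallow, with medians of 739 and 822 UMIs against 7669 and 3821. B-like spleen cells held Il1b in 1.29% of aged and 0.831% of young cells and Cxcl2 in 1.03% and 0.415%. Plasma-like cells of aged spleen, with a median of 1514.5 UMIs, held Il1b in 2.99% and Cxcl2 in 5.56% of 234 cells. A part of background in the myeloid shares was not tested. Ccl8 and Ccl12, the most abundant of the 10 genes in brain border macrophages, had 1 and 2 UMIs in aged and 1 and 1 in young spleen myeloid cells.

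Genes of the same pathways gave a mixed picture beside the list. Of 22 immediate early genes in microglia 9 were past 2-fold lower in aged brain and 0 higher, where 2.65% of all genes were lower and 9.59% higher, with a median log2 ratio of -0.92 against 0.10 for all genes. Fos stood at 252 and 644 CPM and Btg2 at 813 and 1650 CPM. Cxcl10, an interferon-induced chemokine, was at 21.9 and 55.4 CPM, a ratio of 0.396 (0.342 to 0.458), and Tnf at 21.1 and 13.7 CPM, a ratio of 1.53 (1.21 to 1.96). Of 20 measured NF-kB feedback genes 1 was higher and 1 lower, near or below those shares.

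In border macrophages 3 of 15 interferon response genes were past 2-fold lower in aged brain and 0 higher, where 3.48% of all genes were lower and 10.6% higher, with a median of -0.71 against 0.07, and Isg15 stood at 31.7 and 142 CPM. Ccr2, the receptor of Ccl2, Ccl7 and Ccl12, stood at 371 and 174 CPM, a ratio of 2.13 (1.70 to 2.70). Pf4, a CXC chemokine that marks border macrophages, stood at 1196 and 2763 CPM, a ratio of 0.433 (0.406 to 0.462). The MHC class II share of the class differed beside these values, as given above, and its part in them was not tested.

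In spleen myeloid cells 6 of 20 NF-kB feedback genes were past 2-fold higher and 1 lower, where 6.31% of all genes were higher and 5.68% lower, with a median of 0.47 against 0.03, among them Ptgs2 at 333 and 110 CPM. The cell described above held 65 of its 103 aged UMIs. Of 17 interleukin 1 pathway genes 11 were measured and 2 were higher, Nlrp3, the inflammasome sensor, at 168 and 38.8 CPM and the decoy receptor Il1r2 at 120 and 2.16 CPM (37 and 1 UMIs). Of 11 measured interferon response genes 7 were lower and 0 higher, with a median of -1.22, and Isg15 had 4 and 34 UMIs. Lcn2, an acute phase gene also abundant in neutrophils, was at 925 and 25.9 CPM.

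Across 24 points, each a class of 1 library, and 12771 genes, the gene most like Ccl2 in level was Ccl7 (Pearson r = 0.91 of log2(CPM + 10)), followed by Ddi2, Cln8, Ccl9 and Ssh3 at 0.83 to 0.85. Ccl8 was most like Cd209b (0.98), Siglec1, Cd209g, Folr2 and Cd209f (0.96), and Il1b most like Clec4d (0.97), Ifitm6, Ltb4r1, Mcemp1 and Dram1 (0.96). Points share libraries and depth, and no p is given.

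The authors' deposited tables of cluster genes held 3 of the 10 genes. In the authors' deposited table of aged brain, Ccl12 was found in 30.4% of the cells of a cluster led by Cd74 and H2-Eb1, and Il1b in 38.8% of one led by S100a9. The authors' deposited table of young brain gave Ccl12 in 26.8% of a cluster led by Apoe and Lyz2. In the authors' deposited table of aged spleen, a cluster led by S100a9 held Il1b in 48.9% and Cxcl2 in 35.3% of cells, and another led by Tbc1d4 held Il1b in 53.3%. The authors' deposited table of young spleen gave Il1b in 34.7% and Cxcl2 in 27.6% of an S100a9-led cluster.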

How the data were processed

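Single cells of 4 libraries were analysed. The authors deposited UMI count matrices of all barcodes (header software version 3.1.0, per the file headers). Cell Ranger (1.3.1) is listed per the submitters' processing notes, as is the human build GRCh38, although the matrix genes are mouse. The barcode and gene files, per the file headers of other kinds, were used as labels of rows and columns. The authors' deposited tables of cluster genes hold the fraction of a cluster's cells with a gene, a log ratio whose base is not stated (taken as natural log, and used only to rank genes within a cluster) and p-values, which were not used.

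Barcodes were called as cells by depth (a cutoff at 10% of what percentile 99 among the 3000 deepest barcodes reached) or by difference from the free RNA of barcodes of at most 100 UMIs (10000 simulations, false discovery rate 0.01). Cells needed 500 UMIs, 250 genes and at most 10% mitochondrial UMIs. Scrublet's automatic threshold marked 0.0082% of aged and 0.0342% of young brain cells, so it had not worked there, and the 1190 and 615 cells with the highest scores were removed (0.8% per 1000 cells); in spleen its automatic calls, 157 aged and 236 young, were removed. Cells were clustered (scanpy 1.11.5, igraph 0.11.9, Leiden resolution 1, 2000 variable genes without the 10 genes, 30 components, 15 neighbours) and named by marker scores of at least 1.1. That minimum was set after seeing the data, and it left a Tbc1d4-led cluster unnamed. Python 3.11.15, numpy 2.4.6, scipy 1.17.1 and pandas 2.3.3 were used.

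UMIs were summed by class and library and scaled to 1e+06. A gene was measured with 20 UMIs over both sums and called past 2-fold, with no test, since each group has 1 library. All 10 genes are named in every comparison. From each pathway list at most 4 genes past 2-fold were named, in order of UMIs, besides immediate early genes, Nfkbia, Tnf, Il1a, Il1rn and class markers. The 5 genes most like Ccl2, Ccl8 and Il1b were named by correlation. The genes and lists were chosen with earlier results of these data known. Library totals ran from 26384220 to 57011537 UMIs. Alternatives covered cell filters, doublets, clustering, gating, depth, scaling and single cells.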

Additional observations from a re-analysis of the deposited data

Results flagged for a closer look

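Several genes were higher in the aged library in one class and lower in another. With 1 library a group none of these differences was tested. Il1b was higher in aged border macrophages and aged spleen myeloid cells, and lower in aged microglia and aged spleen neutrophils. The log2 ratio differed by 1.85 between border macrophages and microglia, by 2.32 between border macrophages and spleen neutrophils, by 2.92 between spleen myeloid cells and microglia, and by 3.38 between spleen myeloid cells and spleen neutrophils. The Il1b share of aged microglia lay under that of endothelial-like cells, as given above. Cxcl2 differed by 2.71 between spleen myeloid cells and spleen neutrophils, and 1 aged cell held 58.6% of its myeloid UMIs. Saa3 differed by 9.71 between spleen myeloid cells and border macrophages, where 1 young cell held all 21 UMIs.

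A signal also lay outside the compared classes. An unnamed spleen cluster led by Tbc1d4 held Il1b at 463 CPM in aged (52.1% of 217 cells) and 195 CPM in young spleen (21.6% of 37 cells), and Cxcl2 at 138 CPM in aged spleen (17.5%). H2-Aa was found in 94.9% of its aged cells, Itgax in 58.5%, the decoy receptor Il1r2 in 60.8% and Lyz2 in 7.83%. B-like cells of the same libraries held Il1b in 1.29% and 0.831% of cells.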

How the results depend on the processing

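Of the log2 ratios of single genes under the alternatives, 370 moved by less than their counting error, 103 moved by more, and 3 that had been past 2-fold turned direction; of the counts of genes past 2-fold, 75 stayed within 1.5 times and 11 did not. Ratios under 2-fold that changed sign, such as Il1b in microglia from -0.65 to 0.15, 0.41 or 0.03, are counted by the size of the move. The 3 that turned were Ccl8 in border macrophages with a mitochondrial limit of 5% (-0.064), Il1b of border macrophages against microglia in young brain with a marker gate per cell (-0.38) and Il1b in spleen with the gate alone (-0.88). With the 5% limit the count went from 1 to 2 in spleen neutrophils and from 1 to 0 in neutrophils of aged brain against aged spleen, and leaving out the 5 richest cells of each gene gave the same 2 and 0. It went from 3 to 1 in border macrophages at Leiden resolution 2. With the marker gate it went from 2 to 4 in microglia and from 9 to 5 in border macrophages against microglia of aged brain. Thinning each cell to 1000 UMIs gave 0 in microglia and 0 in spleen myeloid cells, where 8 genes were measured with all cells at full depth. In spleen myeloid cells 5 richest cells left out gave 1. The top aged cell left out, chosen after seeing the data, gave 2, with Ccl7, Cxcl3, Il6 and Arg1 then under 20 UMIs and not measured. The whole spleen cluster and border macrophages without Tmem119 or P2ry12 were also chosen after seeing the data. The counts of genes past 2-fold in this paragraph stand without the share of all genes under the same alternative. Nothing is read from them. The cause of these changes was not tested, except that thinning leaves fewer UMIs and cells. Spleen myeloid cells gave no value with no doublets removed and at Leiden resolution 2. No paired analysis was possible because each group has 1 library. Depth limits genes under 20 UMIs, and intervals leave out variation between mice.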
